A study of Mus musculus with 6 samples.

Results

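Oligodendrocyte precursors made up 785 of the 27766 nuclei kept from 6 single-nucleus RNA libraries of mouse hippocampus (2.83%). A nucleus was kept if it held at least 500 genes with no more than 5% of its UMIs from mitochondrial genes, a UMI (unique molecular identifier) standing for 1 captured RNA molecule. It was taken as a precursor if Pdgfra, Cspg4, Vcan, Neu4 and Emid1 together had at least 3 UMIs, with at most 2 UMIs of the neuronal genes Slc17a7, Gad1 and Gad2, at most 1 of the myelin genes Mog, Mag and Mobp, and at most 1 of the astrocyte genes Gja1 and Aqp4. Because these genes chose the nuclei, their levels in the whole set are given as a description only.

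The series asks how CI-994, an inhibitor of class I histone deacetylases (HDACs), changes transcription in hippocampal cell types after contextual fear conditioning (CFC), in which mice learn to link a chamber with foot shocks. All animals were C57BL/6J male mice of 12 weeks with no transgene, and each library pooled the hippocampi of 5 mice. In HDACi-CFC (2 libraries), 30 mg/kg CI-994 was injected into the peritoneum 1 h before a new chamber with 2 foot shocks of 0.2 mA, and the mice were killed 1 h after it. Veh-CFC (2 libraries) had the same chamber and shocks after vehicle, a mixture of dimethyl sulfoxide, Kolliphor and saline. HDACi-Context (1 library) had CI-994 and the chamber without shocks, and Veh-Context (1 library) had vehicle and the chamber without shocks. The free-text description of this last library names the inhibitor while its title and treatment label name vehicle, so it is called the library labelled Veh-Context throughout. Nothing in the labels says whether the 2 libraries of a CFC group came from separate experiments, so p-values measure the spread between these libraries. The tissue tag adds "DG" to hippocampus, and actinomycin D, which blocks new transcription, was in the buffers used to prepare the nuclei.

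Oligodendrocyte precursors are the dividing glia that give rise to oligodendrocytes, the cells that wrap axons in myelin. They are held in the precursor state by platelet-derived growth factor acting through its receptor PDGFRα, coat themselves with chondroitin sulfate proteoglycans, carry glutamate and GABA receptors and receive synapses from neurons. On commitment they pass through a stage marked by the receptor GPR17, then turn on Enpp6, Myrf and the myelin genes. HDAC1 and HDAC2 act in corepressor complexes such as SIN3, NuRD and CoREST, HDAC3 in the NCoR complex, and class I HDAC activity is known to take part in the step to the myelinating oligodendrocyte.

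Start regions are shown for 3 genes on which the identity results turn: the receptor that helped to define the nuclei (Pdgfra), a lineage transcription factor (Olig2) and the matrix glycoprotein with a large drug effect among identity genes (Tnr). Each spans 250 bases before to 50 bases after the RefSeq start in GRCm38.p6. Pdgfra lies at chr5:75152292-75198215, plus strand, Olig2 at chr16:91225457-91228677, plus strand and Tnr at chr1:159523769-159931729, plus strand in the gene annotation of the same build, and all 3 genes are protein coding. The windows are chr5:75152001-75152300, chr16:91225300-91225599 and chr1:159523519-159523818, all on the plus strand. Capitals mark the GC box GGGCGG on either strand, read as CCGCCC on the other.
Pdgfra: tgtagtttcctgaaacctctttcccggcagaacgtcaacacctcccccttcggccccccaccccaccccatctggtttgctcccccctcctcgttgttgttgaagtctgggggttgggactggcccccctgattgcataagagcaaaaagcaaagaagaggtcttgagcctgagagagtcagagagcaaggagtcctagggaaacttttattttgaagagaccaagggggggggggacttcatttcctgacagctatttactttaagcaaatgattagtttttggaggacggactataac
Olig2: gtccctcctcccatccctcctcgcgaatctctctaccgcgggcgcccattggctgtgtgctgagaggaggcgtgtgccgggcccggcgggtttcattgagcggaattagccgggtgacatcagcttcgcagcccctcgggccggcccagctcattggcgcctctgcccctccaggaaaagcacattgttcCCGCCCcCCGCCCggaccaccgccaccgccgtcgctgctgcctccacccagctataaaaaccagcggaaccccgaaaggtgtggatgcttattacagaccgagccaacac
Tnr: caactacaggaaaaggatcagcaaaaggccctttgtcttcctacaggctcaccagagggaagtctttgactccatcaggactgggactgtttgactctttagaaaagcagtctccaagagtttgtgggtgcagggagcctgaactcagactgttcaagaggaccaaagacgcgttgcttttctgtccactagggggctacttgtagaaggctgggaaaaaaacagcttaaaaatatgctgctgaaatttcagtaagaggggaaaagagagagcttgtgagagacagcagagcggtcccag
The Olig2 window held 2 GC boxes that do not overlap, 25 CpG dinucleotides and 65.0% G or C. The Pdgfra window held no GC box, 5 CpG and 51.0% G or C, and the Tnr window no GC box, 3 CpG and 48.0% G or C. A GC box was found in 35.7% of 32851 RefSeq start windows of this length. These include genes not tested here, and 76.1% of the tested genes had a window, too few to give a share over them. A match or its absence describes the letters only.

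The 6 libraries held 24508202 to 45570814 UMIs and 3743 to 5473 kept nuclei each. The members carried the label's cell type. Lhfpl3, a membrane protein that marks precursors and was not used to choose them, had a UMI in 93.0% to 97.2% of members by library, against 3.96% to 8.91% of astrocytes and 4.28% to 7.13% of mature oligodendrocytes chosen by their own markers. Median depths by library were 2997.0 to 3711.0 UMIs per member, 2941.0 to 3699.0 per astrocyte and 1940.5 to 2501.0 per oligodendrocyte. Of all members, 749 (95.4%) had a UMI of Olig1, Olig2, Sox10 or Lhfpl3. Pdgfra ran from 739 to 1567 CPM (UMIs of a gene per 1000000 UMIs of the class in that library) by library in members, Cspg4 (the NG2 proteoglycan) from 263 to 511, Vcan (versican) from 1007 to 1804, Neu4 (a sialidase) from 212 to 381 and Emid1 (a matrix protein) from 286 to 716. Defined by the rule, these levels carry no test.

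Outside the rule, 25 identity genes were examined. In all 6 libraries 20 of them were higher in members than in mature oligodendrocytes, astrocytes and all other kept nuclei. Lhfpl3 stood at 3716 to 5668 CPM in members (median 5137), against 19.4 to 50.4 in oligodendrocytes, 9.53 to 33.6 in astrocytes and 55.2 to 69.1 in the rest. Cacng4, an auxiliary subunit of AMPA receptors, stood at 430.3 to 971 in members and no higher than 23.0 elsewhere. Tnr, tenascin-R, had the highest median of those plotted (5447.5), with 3781 to 8221 in members against 643 to 920.3 in the rest. In the Veh-CFC libraries Lhfpl3 was higher, at 5209 and 4678 against 4009 and 3781 for Tnr. The lineage factors were shared with the next stage: Sox10 had 392 to 831 in members and 255 to 788 in oligodendrocytes, and Olig1 157 to 465 and 115 to 392, both highest in members in 5 of 6 libraries. Bcan (brevican) was higher in astrocytes in every library, at 267 to 769 in members against 558 to 1166 in astrocytes, and Luzp2 was highest in members in 1 library.

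**Figure D1:**
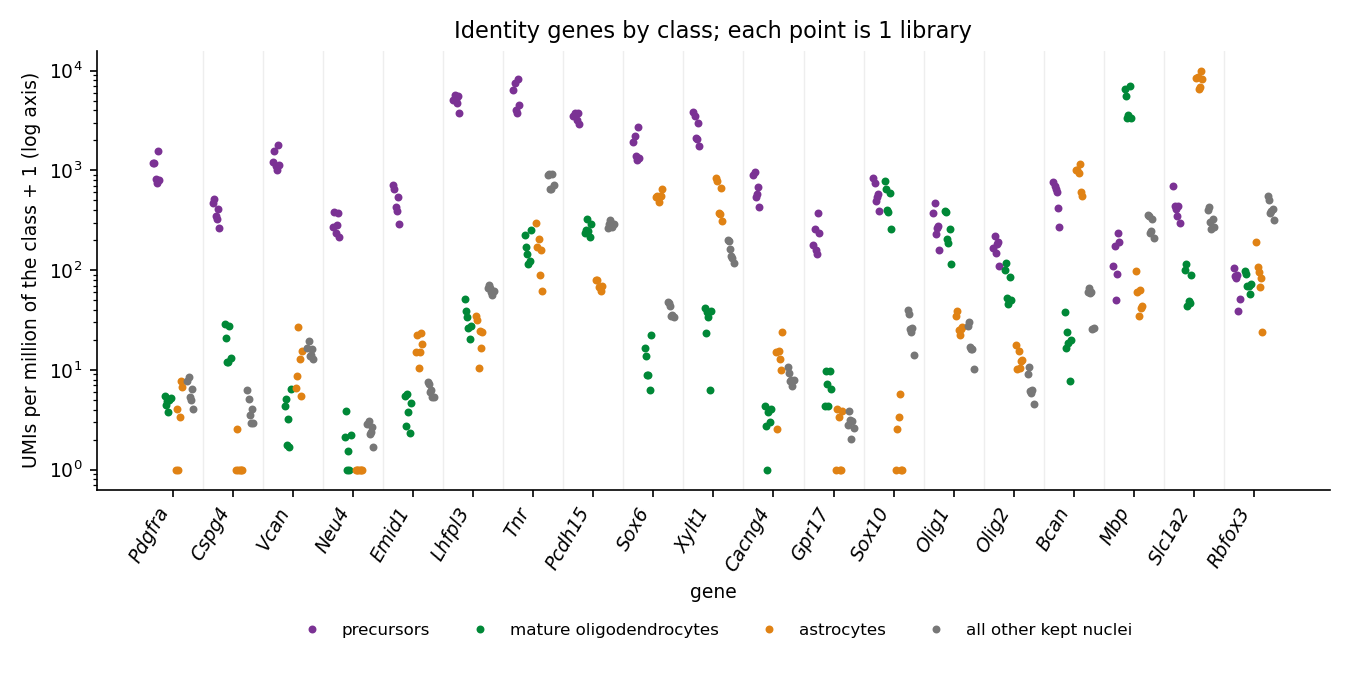
Levels of rule genes, other identity genes and markers of other classes, in CPM (counted within the class) plus 1 on a log axis, with 1 point for each of the 6 libraries in precursors, mature oligodendrocytes, astrocytes and all other kept nuclei. Lhfpl3, Tnr, Pcdh15 and Gpr17 are higher in every precursor library than in any other class, Sox10 and Olig1 lie close to mature oligodendrocytes, and Bcan is higher in astrocytes.

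The members differed in how far they stood from the threshold. The 5 rule genes had a median of 13 and 17 UMIs per member in the HDACi-CFC libraries, against 10 and 11 in Veh-CFC, and 16 in HDACi-Context against 9 in the library labelled Veh-Context, with single members between 3 and 82. Just inside the threshold, 38 members had 3 such UMIs, and just outside it 128 nuclei that met the other limits had 2. A lineage UMI (Olig1, Olig2, Sox10 or Lhfpl3) was found in 16.7% to 66.7% of those just inside by library, and in 18.2% to 40.0% of those just outside. Some members carried RNA of other cells: 36 had no UMI of Olig1, Olig2, Sox10 or Lhfpl3, 32 had at least 50 UMIs of the neuronal RNAs Meg3 and Snhg11 per 10000, and 20 had at least 3 UMIs of a fibroblast or a pericyte list, some meeting more than 1 of these conditions. Without them, 722 purer members remained (92.0%), and the nuclei left out held 18.7% and 16.7% of member UMIs in HDACi-CFC, against 11.2% and 15.8% in Veh-CFC, and 3.90% in HDACi-Context against 18% in the library labelled Veh-Context. This narrower set was defined after the drug results had been seen. A doublet caller marked 39 members (4.97%), against 3.34% of kept nuclei, and no member barcode was shared between libraries (74 barcodes were shared among all nuclei).

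Other cell types' markers in members moved in part with the drug. The 6 astrocyte genes (Slc1a2, Slc1a3, Aldoc, Gfap, Slc4a4 and Sox9) summed to 1595 and 1043 CPM in HDACi-CFC, against 919 and 897 in Veh-CFC, and 961 in HDACi-Context, against 532 in the library labelled Veh-Context. Gfap and Sox9 were at 0 in the library labelled Veh-Context, and the other 4 had UMIs in every library. In astrocytes themselves the same genes summed to 14149 and 14473 in HDACi-CFC, against 11359.6 and 12133 in Veh-CFC. The 10 excitatory neuron genes summed to 1246 and 1188 CPM in HDACi-CFC, against 856 and 982 in Veh-CFC, and 1263 in HDACi-Context, against 1113 in the library labelled Veh-Context, with Dsp at 0 in Veh-CFC replicate 1 and in the library labelled Veh-Context. The 8 leptomeningeal fibroblast genes summed to 19.2 and 79.2 CPM in HDACi-CFC, against 144 and 177 in Veh-CFC, and 93.3 in HDACi-Context, against 36 in the library labelled Veh-Context. Microglial genes summed to 76.7 to 125 CPM in the CFC libraries, and to 327 in HDACi-Context against 464 in the library labelled Veh-Context. Endothelial genes stayed between 23.4 and 40.4 and pericyte and smooth muscle genes between 12.7 and 104. The 6 neuroblast genes summed to 179 and 168 CPM in HDACi-CFC, against 130 and 141 in Veh-CFC, and 129.6 in HDACi-Context, against 95.4 in the library labelled Veh-Context, higher with CI-994 in both exposures. Of these Eomes, Neurod1 and Neurod4 were at 0 in members of every library, and Neurod1 also in all other kept nuclei. The interneuron list stood at 2532 to 3158, most of it Erbb4, a neuregulin receptor whose list was also at 1775 to 2020 in mature oligodendrocytes. The part of these levels in the drug results was not tested.

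A range from early to committed precursors lay within the set. Members with at least 2 UMIs of Gpr17 numbered 16 and 43 in HDACi-CFC, against 15 and 20 in Veh-CFC, and 52 in HDACi-Context against 24 in the library labelled Veh-Context. Members with none numbered 71 and 59 in HDACi-CFC, against 63 and 83 in Veh-CFC, and 51 in HDACi-Context against 60 in the library labelled Veh-Context. The nuclei rich in Gpr17 were deeper in 5 of 6 libraries, with library medians of 3288.0 to 4313.0 UMIs against 2880.0 to 3603.0 in those without, and the comparison below is a description with no test. Its ratios pool 6 libraries over which the 2 sets of nuclei divide differently, so drug group and state are partly mixed in them. Relative to members without Gpr17, the pooled level in members with Gpr17 was 24.5 times as high for Enpp6, a choline phosphodiesterase of newly forming oligodendrocytes. The same ratio was 7.85 for Bmp4, 6.86 for Mbp, 5.38 for Chn2, 5.13 for Myrf (the transcription factor of myelin genes), 3.51 for the kinase Fyn, 3.27 for Bcas1 and 1.6 for Tcf7l2. Each of these was higher with Gpr17 in 6 of 6 libraries, while Rras2, Casr and Tmem2 of the list of committed cells had ratios of 1.22, 1.96 and 0.835 and were higher in 2, 1 and 3 of 6. Precursor markers had ratios above and below 1. Of those given next, Neu4, Vcan, Cspg4, Pdgfra and Emid1 are rule genes. Every nucleus of both sets had to hold at least 3 of their UMIs together, so their ratios cannot show a loss of these genes on commitment. Neu4, Tnr and Sox6 had ratios of 1.75, 1.71 and 1.55, higher with Gpr17 in 6 of 6 libraries. Vcan had 1.32 and Cspg4 1.08, higher in 4 and 3 of 6. The ratio was 1.000 for Pdgfra, 0.949 for Lhfpl3 and 0.866 for Emid1, higher with Gpr17 in 2, 2 and 1 of 6 libraries.

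The share of precursors among kept nuclei was 3.45% and 2.81% in the HDACi-CFC libraries, against 2.82% and 3.09% in the Veh-CFC libraries. The groups overlapped. Exact binomial 95% intervals, which cover counting error only, ran from 2.37% to 4.08% over HDACi-CFC and from 2.31% to 3.63% over Veh-CFC. The means of 3.13 ± 0.454% and 2.96 ± 0.194% (SD, n = 2 each) differed by 0.171 percentage points (exact permutation test over libraries, two-sided p = 1, the smallest possible being 0.333). The Context pair had 2.63% in HDACi-Context and 2.36% in the library labelled Veh-Context. Among nuclei of at least 2000 UMIs, thinned to that depth, the shares were 3.73% and 3.11% in HDACi-CFC, against 3.01% and 3.08% in Veh-CFC, without overlap. They were 2.81% in HDACi-Context and 2.25% in the library labelled Veh-Context. The rule counts UMIs of genes that were themselves higher with CI-994, and the part of this in the share was not tested.

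After CFC, 1206 of 8046 genes tested were higher in precursors with CI-994 (15%) and 809 were lower (10.1%), by edgeR's quasi-likelihood test on UMI counts summed per library with Benjamini-Hochberg adjusted p below 0.05, 2 HDACi-CFC against 2 Veh-CFC libraries. Member UMIs per library numbered 423078 to 639798. Levels below are CPM after TMM scaling of these sums. The counts depended on 1 library: without Veh-CFC replicate 1 the test called 0 genes, while 1965 had an unadjusted p below 0.05, so every call of a drug effect after CFC given below for all members is lost without that library (differences between exposures and between classes were still called), and without Veh-CFC replicate 2 it called 756 higher and 297 lower. Without HDACi-CFC replicate 1 or 2 the lower calls numbered 476 and 434. In the purer members 1025 of 7136 genes were higher (14.4%) and 704 lower (9.87%), and without Veh-CFC replicate 1 the test still called 904 higher and 390 lower there. Except without Veh-CFC replicate 1 in all members, the fits lacking 1 library took each gene's variance almost wholly from a common trend. DESeq2 called 530 higher and 76 lower, all within the 2015 genes of edgeR. It gave some named genes no adjusted p, and those are not among the calls said below to be lost under DESeq2. Under library-size scaling the split was 626 higher and 1791 lower, with the median gene shifted by -0.31 on the log2 scale, and under scaling to the number of nuclei it was 390 and 1801, with a shift of -0.41.

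Direction went with abundance. Among 264 genes with a mean log2 level above 9, 67% were called higher and 1.14% lower, with a median log2 fold change of 0.51. Higher calls made up 51.0% of the 386 genes at 8 to 9, 31.1% at 7 to 8, 14.7% at 6 to 7 and 7.29% at 5 to 6. Among the 1866 genes under 5 on that scale, 4.66% were called higher and 12.0% lower, with a median of -0.28. In the Context pair the same bins had median log2 ratios of 0.56 and -0.27. With each nucleus thinned to 2000 UMIs, precursors held a median of 1152.0 and 1147.0 genes in HDACi-CFC, against 1279.0 and 1294.0 in Veh-CFC, and 1147.0 in HDACi-Context against 1289.5 in the library labelled Veh-Context. The libraries with CI-994 lay below the libraries labelled vehicle. The same order was seen in mature oligodendrocytes, at 1036.0 to 1055.0 with CI-994 against 1166.0 to 1197.0, and in astrocytes, at 1101.5 to 1117.5 against 1225.0 to 1234.5. Thinning left out 27 shallower members with CI-994 and 13 under vehicle labels.

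**Figure D2:**
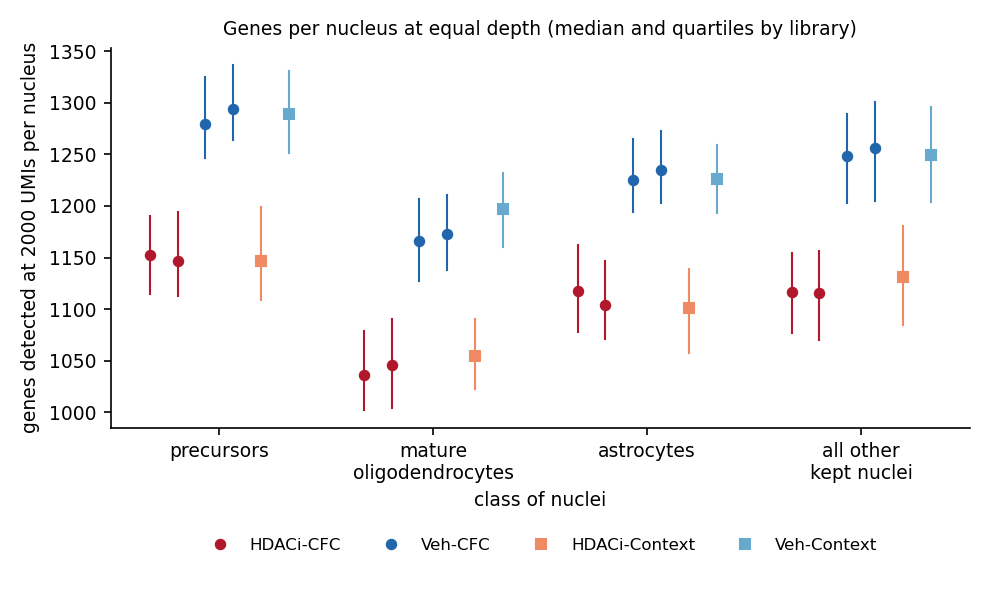
Genes detected per nucleus after thinning each nucleus to 2000 UMIs, as the median (point) and quartiles (line) of each library, for precursors, mature oligodendrocytes, astrocytes and all other kept nuclei. In each class the 3 libraries with CI-994 lie below the 3 labelled vehicle, at 1147.0 to 1152.0 against 1279.0 to 1294.0 genes in precursors.

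The Context pair shares no library with the CFC comparison, so its sign was read in libraries that the calls did not use. With 1 library each there is no replicate check, and its 95% intervals on the log2 ratio cover counting error only. The ratio of HDACi-Context to the library labelled Veh-Context had the sign of the CFC fold change for 1833 of the 2015 called genes (91.0%), against 72.7% over all genes tested. By direction these were 1089 of 1206 higher genes and 744 of 809 lower genes. Its interval lay above 0 for 1386 of all 8046 genes (17.2%) and below 0 for 1055 (13.1%). Among purer members the share with the same sign was 95.7%, against 75.6% over all genes tested there.

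**Figure D3:**
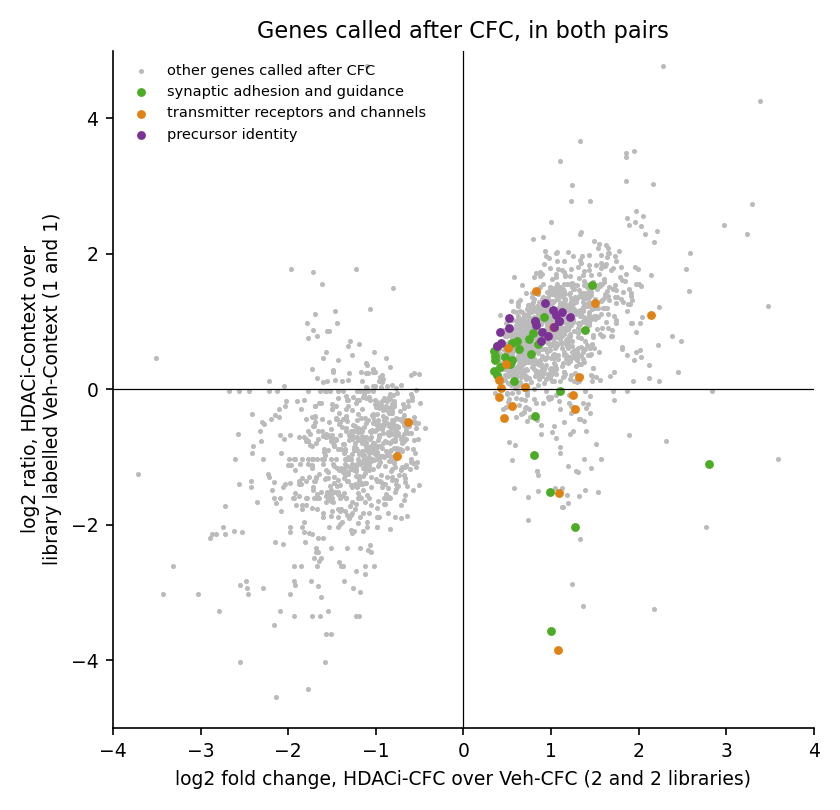
Each point is 1 of 2003 genes called after CFC in precursors (12 more lie outside the axes), with the log2 fold change of HDACi-CFC over Veh-CFC on the x axis and the log2 ratio of HDACi-Context over the library labelled Veh-Context on the y axis. Most points lie in the lower left or upper right, all 18 called identity genes in the upper right, and a group of adhesion and transmitter genes, Unc5d and Cntnap2 among them, is higher after CFC but lower in Context.

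The 5 rule genes were tested in nuclei selected on the other 4 genes, a test added after the data had been seen, so that no gene chose the nuclei in which it was measured. The other 4 still chose these nuclei, 744 to 771 by gene, and all 5 genes were higher with CI-994, so selection on the rule is not fully removed. Pdgfra had 1384 and 1379 CPM in HDACi-CFC, against 783 and 705 in Veh-CFC (log2 fold change 0.90 ± 0.14, adjusted p = 6.7e-05). Cspg4 had 536 and 589.9 CPM in HDACi-CFC, against 337 and 306 in Veh-CFC (log2 fold change 0.82 ± 0.16, adjusted p = 6.6e-04). Emid1 had 821 and 781 CPM in HDACi-CFC, against 409.6 and 365 in Veh-CFC (log2 fold change 1.05 ± 0.16, adjusted p = 5.9e-05). For these 3 genes both HDACi-CFC libraries lay above both Veh-CFC libraries. Vcan had 1403 and 1996 CPM in HDACi-CFC, against 1068 and 971 in Veh-CFC (log2 fold change 0.74 ± 0.17, adjusted p = 0.0034), and Neu4 had 315 and 443 CPM in HDACi-CFC, against 227 and 258 in Veh-CFC (log2 fold change 0.64 ± 0.18, adjusted p = 0.013). Vcan lost the call without HDACi-CFC replicate 2 (log2 fold change 0.49, adjusted p = 0.068), and Neu4 did so under library-size scaling (0.33, adjusted p = 0.17). The Context ratios were 1.26 for Pdgfra, 0.92 for Cspg4, 0.96 for Vcan, 1.16 for Neu4 and 1.19 for Emid1. Genes this abundant were often called higher, 51.0% of all genes at 8 to 9 on the log2 scale and 67% above 9.

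Identity genes outside the rule were mostly higher with CI-994: 18 of 25 were called higher and none lower, with a median log2 fold change of 0.82 after CFC and a median log2 ratio of 0.90 in Context. Over all genes tested these medians were -0.01 and -0.03, and 15% were called higher. These genes are abundant in precursors, with a median level of 9.67 on the log2 scale, and genes above 9 on that scale were called higher in 67% of cases. The 18 of 25 identity genes lie near that share. Tnr, tenascin-R, a matrix glycoprotein of precursors and perineuronal nets, had 7506 and 8755 CPM in the HDACi-CFC libraries, against 3873 and 3576 in the Veh-CFC libraries, and 9656 in HDACi-Context and 4380.2 in the library labelled Veh-Context. The libraries with CI-994 lay above the others in both exposures, by log2 fold change 1.13 ± 0.14 (SE), adjusted p = 1.5e-08, and a Context ratio of 1.14. Xylt1, which starts the sugar chains of proteoglycans, had 4459.8 and 4112 CPM in HDACi-CFC, against 2058 and 1963 in Veh-CFC (log2 fold change 1.09 ± 0.14, adjusted p = 3.0e-08), with a Context ratio of 1.02. The 2 groups did not overlap. Megf11, a transmembrane protein with EGF repeats, had 1269 and 1007 CPM in HDACi-CFC, against 589 and 485 in Veh-CFC (log2 fold change 1.09 ± 0.16, adjusted p = 5.8e-07). Rlbp1, a retinaldehyde-binding protein, had 197 and 241 CPM in HDACi-CFC, against 61.7 and 119.7 in Veh-CFC (log2 fold change 1.22 ± 0.22, adjusted p = 5.8e-05). In both, each HDACi-CFC library was above each Veh-CFC library. Lhfpl3 had 5938 and 6644 CPM in HDACi-CFC, against 5033 and 4424 in Veh-CFC (log2 fold change 0.41 ± 0.13, adjusted p = 0.019). It lost the call under library-size scaling (0.10), without HDACi-CFC replicate 1 (0.53) and without HDACi-CFC replicate 2 (0.34), with log2 fold changes in parentheses here and for other lost calls. Log2 fold changes over the 18 called genes ran from 0.38 to 1.22. Under library-size scaling 13 of the list were higher and 3 lower, and per nucleus 8 and 2. The Context interval lay above 0 for 21 of the 25. Astrocyte markers in members were also higher in each library with CI-994, as given above, and their part was not tested.

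Among oligodendrocyte-lineage transcription factors, 18 of the 30 tested were higher and none lower, with a median log2 fold change of 0.64 after CFC and a median log2 ratio of 0.70 in Context, and 6 more of the 36 listed were too low to test. Nfix, a nuclear factor I protein of glial development (chr8:84699876-84800344, minus strand), had 307 and 308 CPM in the HDACi-CFC libraries, against 86.8 and 102 in the Veh-CFC libraries, and 266 in HDACi-Context and 78.6 in the library labelled Veh-Context (log2 fold change 1.69 ± 0.20, adjusted p = 1.0e-08). Nfia, another member of that family, had 1536 and 1598 CPM in HDACi-CFC, against 763 and 678 in Veh-CFC (log2 fold change 1.12 ± 0.14, adjusted p = 7.0e-08), and 1507 in HDACi-Context and 537 in the library labelled Veh-Context. The values of both genes separated the libraries with CI-994 from those labelled vehicle in both exposures, and in the purer members their log2 fold changes were 1.79, adjusted p = 5.0e-06 and 1.21, adjusted p = 6.9e-06. Both are also expressed by astrocytes. Olig1, a basic helix-loop-helix factor of the lineage, had 434 and 545 CPM in HDACi-CFC, against 224 and 247 in Veh-CFC (log2 fold change 1.06 ± 0.17, adjusted p = 8.7e-06), and 327 in HDACi-Context and 153 in the library labelled Veh-Context. Olig2, its partner whose start window is shown above, had 195 and 257 CPM in HDACi-CFC, against 142 and 173 in Veh-CFC, with 223 in HDACi-Context and 107 in the library labelled Veh-Context. Its fold change was smaller (log2 fold change 0.52 ± 0.20, adjusted p = 0.048) and was not called in the purer members (0.53, adjusted p = 0.063), while its Context ratio was 1.05 (95% interval 0.57 to 1.56). Olig2 also lost the call under library-size scaling (0.20), under DESeq2 (0.52), without HDACi-CFC replicate 2 (0.30) and without Veh-CFC replicate 2 (0.67). Id4, an inhibitor of such factors, had 26 and 16 UMIs in HDACi-CFC, against 4 and 7 in Veh-CFC (log2 fold change 2.22 ± 0.48, adjusted p = 4.6e-04), and was too low to test in the purer members. It lost the call without HDACi-CFC replicate 1 (1.69). The list's median level was 7.45 on the log2 scale, where 31.1% of all genes at 7 to 8 were called higher. Under library-size scaling 12 of the list were higher and 1 lower, and per nucleus 6 and 0.

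Of 18 genes of committed and premyelinating cells, 11 were higher and Chn2 was lower, with a median log2 fold change of 0.81 after CFC and a median log2 ratio of 0.52 in Context, against 15% higher over all genes tested. DESeq2 called 8 of them higher and 0 lower. Kif21b, a kinesin, had 142 and 146 CPM in HDACi-CFC, against 48.0 and 45.8 in Veh-CFC (log2 fold change 1.62 ± 0.25, adjusted p = 3.8e-06). Lims2, a focal adhesion adaptor, had 157 and 209 CPM in HDACi-CFC, against 77.6 and 87.2 in Veh-CFC (log2 fold change 1.15 ± 0.22, adjusted p = 1.1e-04), and 231 in HDACi-Context and 116 in the library labelled Veh-Context. Frmd4a, a polarity scaffold, had 617 and 733 CPM in HDACi-CFC, against 258 and 318 in Veh-CFC (log2 fold change 1.22 ± 0.17, adjusted p = 2.3e-07), but single nuclei held 110 of 247 and 178 of 371 of its HDACi-CFC UMIs, and its Context ratio was 0.15 (95% interval -0.05 to 0.35). Enpp6, Bmp4 and Myrf, which stood out in the nuclei with Gpr17, were tested and not called. Of 11 myelin genes 4 were higher and none lower, with a median log2 fold change of 0.64 after CFC and a median log2 ratio of 0.58 in Context. Their median level was 6.39 on the log2 scale, and 14.7% of all genes at 6 to 7 were called higher. Mbp, myelin basic protein, whose gene also gives Golli transcripts in precursors, had 127 and 203 CPM in HDACi-CFC, against 48.0 and 85.7 in Veh-CFC (log2 fold change 1.26 ± 0.25, adjusted p = 1.6e-04). Gjc3, a glial connexin, had 644 and 729 CPM in HDACi-CFC, against 338 and 289.7 in Veh-CFC (log2 fold change 1.14 ± 0.16, adjusted p = 5.8e-07), and 1996 in HDACi-Context and 715 in the library labelled Veh-Context. Neither gene overlapped between the CFC groups. Ugt8a, which makes galactosylceramide, had 202 and 221 CPM in HDACi-CFC, against 116 and 105 in Veh-CFC (log2 fold change 0.95 ± 0.20, adjusted p = 4.6e-04). Fa2h, a fatty acid hydroxylase of myelin lipids, had 192 and 215 CPM in HDACi-CFC, against 128 and 117 in Veh-CFC (log2 fold change 0.75 ± 0.20, adjusted p = 0.0051) and lost the call under library-size scaling (0.43), under DESeq2 (0.75), without HDACi-CFC replicate 2 (0.68) and without Veh-CFC replicate 2 (0.66). The mature oligodendrocyte markers in members summed to 168 and 278 CPM in HDACi-CFC, against 125 and 206 in Veh-CFC, overlapping between the groups.

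Receptors for growth factors and cell contact moved in part: 13 of 31 tested were higher and 1 lower, with a median log2 fold change of 0.51 after CFC and a median log2 ratio of 0.59 in Context. The list's median level was 6.66 on the log2 scale, and 14.7% of all genes at 6 to 7 were called higher. Notch1, the receptor whose activity restrains precursor maturation, had 265 and 172 CPM in the HDACi-CFC libraries, against 86.8 and 62.1 in the Veh-CFC libraries, and 201 in HDACi-Context and 57.9 in the library labelled Veh-Context. Both pairs were apart, by log2 fold change 1.57 ± 0.23 (SE), adjusted p = 1.4e-06 after CFC and by a Context ratio of 1.80 (95% interval 1.18 to 2.46), and the purer members gave a log2 fold change of 1.57, adjusted p = 1.3e-04. Ntrk2, the receptor of BDNF, had 1046 and 910.5 CPM in HDACi-CFC, against 429 and 408 in Veh-CFC (log2 fold change 1.22 ± 0.15, adjusted p = 4.1e-08), with a Context ratio of 0.95. It did not overlap between the groups. Fgfr1, a fibroblast growth factor receptor, had 149.8 and 117 CPM in HDACi-CFC, against 61.7 and 48.8 in Veh-CFC (log2 fold change 1.28 ± 0.26, adjusted p = 1.8e-04), while its Context interval reached 0, at 0.34 (95% interval -0.37 to 1.07). Tgfbr1, a receptor of TGF-β, was the one lower gene, with 15.0 and 37.5 CPM in HDACi-CFC, against 70.8 and 50.3 in Veh-CFC (log2 fold change -1.10 ± 0.38, adjusted p = 0.027). Its Context ratio was 0.03, and it was not called in the purer members (-0.95, adjusted p = 0.089). Under library-size scaling 7 of the list were higher and 4 lower, and per nucleus 3 and 4. DESeq2 called 7 higher and 0 lower, and gave Tgfbr1 no adjusted p.

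Of 29 proteoglycan and matrix genes, 14 were higher and 1 lower, with a median log2 fold change of 0.59 after CFC and a median log2 ratio of 0.59 in Context. Their median level was 6.71 on the log2 scale, in the same range. Chst3, a chondroitin sulfotransferase, had 102 and 103 CPM in HDACi-CFC, against 29.7 and 35.5 in Veh-CFC (log2 fold change 1.62 ± 0.29, adjusted p = 4.1e-05), and 81.2 in HDACi-Context and 18.6 in the library labelled Veh-Context. Hapln1, a link protein that joins proteoglycans to hyaluronan, had 59.9 and 43.4 CPM in HDACi-CFC, against 16.0 and 22.2 in Veh-CFC (log2 fold change 1.36 ± 0.39, adjusted p = 0.0089). Both were higher in each HDACi-CFC library than in either Veh-CFC library, and Hapln1 lost the call without HDACi-CFC replicate 1 (1.17). Hs6st2, a heparan sulfate sulfotransferase, had 2 and 5 UMIs in HDACi-CFC, against 25 and 27 in Veh-CFC (log2 fold change -2.58 ± 0.50, adjusted p = 1.3e-04), and its Context interval reached 0, at -0.65 (95% interval -1.89 to 0.52). Hs3st4, another enzyme of heparan sulfate, had 46 and 163 UMIs in HDACi-CFC, against 35 and 51 in Veh-CFC (log2 fold change 1.53 ± 0.27, adjusted p = 2.2e-05), but 1 nucleus in each library held 21 and 39 of them in HDACi-CFC, and 30 and 39 in Veh-CFC. It was too low to test in the purer members, lost the call under DESeq2 (1.5) and without HDACi-CFC replicate 2 (0.59), and had a Context ratio of -1.51 (95% interval -2.72 to -0.43). Per nucleus 7 of the list were higher and 2 lower. DESeq2 called 7 higher and 0 lower, and gave Hs6st2 no adjusted p.

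Transmitter receptors and ion channels, through which precursors sense neuronal activity, showed 18 of 53 tested genes higher and 2 lower (Gria4 and Scn1a, at log2 fold changes between -0.76 and -0.63), with a median log2 fold change of 0.31 after CFC and a median log2 ratio of 0.03 in Context. The list's median level was 8.03 on the log2 scale, at the edge between 2 bins. Of all genes, 31.1% at 7 to 8 and 51.0% at 8 to 9 were called higher, and 18 of 53 lay between these shares. Adora1, the adenosine A1 receptor, had 179.8 and 142 CPM in the HDACi-CFC libraries, against 41.1 and 32.5 in the Veh-CFC libraries, and 71.0 in HDACi-Context and 33.1 in the library labelled Veh-Context. Both groups were apart, by log2 fold change 2.14 ± 0.27 (SE), adjusted p = 3.7e-08, with a Context ratio of 1.10 (95% interval 0.21 to 2.05). Kcnip3, a calcium-binding partner of potassium channels, had 1051 and 999 CPM in HDACi-CFC, against 329 and 387 in Veh-CFC (log2 fold change 1.51 ± 0.16, adjusted p = 6.4e-10), and 643 in HDACi-Context and 267 in the library labelled Veh-Context. The libraries with CI-994 were above their counterparts in both exposures. Grin2a, an NMDA receptor subunit, had 909 and 585 CPM in HDACi-CFC, against 217 and 365 in Veh-CFC (log2 fold change 1.32 ± 0.19, adjusted p = 5.6e-07). Gria1, an AMPA receptor subunit, had 924 and 731 CPM in HDACi-CFC, against 253 and 418 in Veh-CFC (log2 fold change 1.27 ± 0.17, adjusted p = 3.0e-07). For these 2 neuronal subunits the Context ratio was 0.18 and -0.28, and 1 nucleus held up to 67 of 364 and 79 of 370 UMIs of a library. In the purer members the log2 fold change was 1.18, adjusted p = 0.0055 for Grin2a and 0.80, adjusted p = 0.0056 for Gria1. Over the list, the purer members had 11 higher and 5 lower, library-size scaling 9 and 7, and the Context interval lay above 0 for 15 genes and below 0 for 11. The excitatory neuron markers given above were also higher in the HDACi-CFC members than in the Veh-CFC members, and their part was not tested.

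Adhesion and guidance genes were higher in 29 of 56 and lower in none, with a median log2 fold change of 0.38 after CFC and a median log2 ratio of 0.28 in Context. Their median level was 9.60 on the log2 scale, and 29 of 56 was below the 67% of all genes above 9 that were called higher. Dscaml1, a homophilic adhesion protein (chr9:45426628-45753712, plus strand), had 2642 and 2340.3 CPM in the HDACi-CFC libraries, against 955 and 853 in the Veh-CFC libraries, and 2571 in HDACi-Context and 885 in the library labelled Veh-Context. The libraries with CI-994 lay above the others in both exposures, by log2 fold change 1.46 ± 0.14 (SE), adjusted p = 1.7e-10 after CFC and a Context ratio of 1.54 (95% interval 1.38 to 1.70). Slit1, a guidance ligand of Robo receptors, had 119.9 and 154 CPM in HDACi-CFC, against 43.4 and 59.1 in Veh-CFC (log2 fold change 1.39 ± 0.26, adjusted p = 5.6e-05). Unc5d, a netrin receptor, had 182 and 113 CPM in HDACi-CFC, against 20.6 and 20.7 in Veh-CFC, the highest log2 fold change of the genes named here (log2 fold change 2.8 ± 0.32, adjusted p = 4.1e-09). Of its UMIs 1 nucleus held 33 of 73 in HDACi-CFC replicate 1, and 1 held 29 of 57 in replicate 2. It was too low to test in the purer members, and its Context ratio was -1.11 (95% interval -2.03 to -0.24). Cntnap2, a neurexin-like adhesion protein, had 989 and 545 CPM in HDACi-CFC, against 297 and 328 in Veh-CFC (log2 fold change 1.28 ± 0.18, adjusted p = 7.1e-07), with 146 of 396 UMIs of HDACi-CFC replicate 1 in 1 nucleus. It was not called in the purer members (0.64, adjusted p = 0.066), and its Context ratio was -2.03 (95% interval -2.44 to -1.63). Under library-size scaling 11 of the list were higher and 2 lower, and the purer members had 25 and 1.

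Beyond Unc5d and Adora1, the genes with the highest fold changes at a mean level of at least 6 on the log2 scale, with CFC groups that did not overlap, were of many kinds. Mroh3 had 147 and 120.5 CPM in HDACi-CFC, against 16.0 and 38.4 in Veh-CFC (log2 fold change 2.17 ± 0.30, adjusted p = 3.1e-07). Mical2, a monooxygenase that takes apart actin filaments, had 162 and 189.6 CPM in HDACi-CFC, against 29.7 and 53.2 in Veh-CFC (log2 fold change 2.02 ± 0.26, adjusted p = 6.0e-08). S100a3, a calcium-binding protein, had 139.8 and 154 CPM in HDACi-CFC, against 27.4 and 42.9 in Veh-CFC (log2 fold change 2.01 ± 0.27, adjusted p = 2.0e-07). These 3 genes were low in vehicle, at 7, 13 and 12 UMIs in Veh-CFC replicate 1. Sycp2, a synaptonemal complex protein of meiotic cells, had 562 and 624 CPM in HDACi-CFC, against 183 and 158 in Veh-CFC (log2 fold change 1.81 ± 0.18, adjusted p = 1.7e-10), and 1027 in HDACi-Context and 335 in the library labelled Veh-Context. It was among the more abundant of these genes and was higher with CI-994 in each exposure, with a Context ratio of 1.62. Cdc42ep1 (an effector of Cdc42), Csrp1 (a LIM protein), Cpne2 (a copine), Itpkb (an inositol trisphosphate kinase) and Adcy10 (soluble adenylyl cyclase) had log2 fold changes of 1.91, 1.91, 1.80, 1.75 and 1.74, and Context ratios of 1.42, 1.38, 1.34, 1.27 and 1.02. For Mical2 the Context interval reached 0, at 0.58 (95% interval -0.26 to 1.45).

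**Figure D4:**
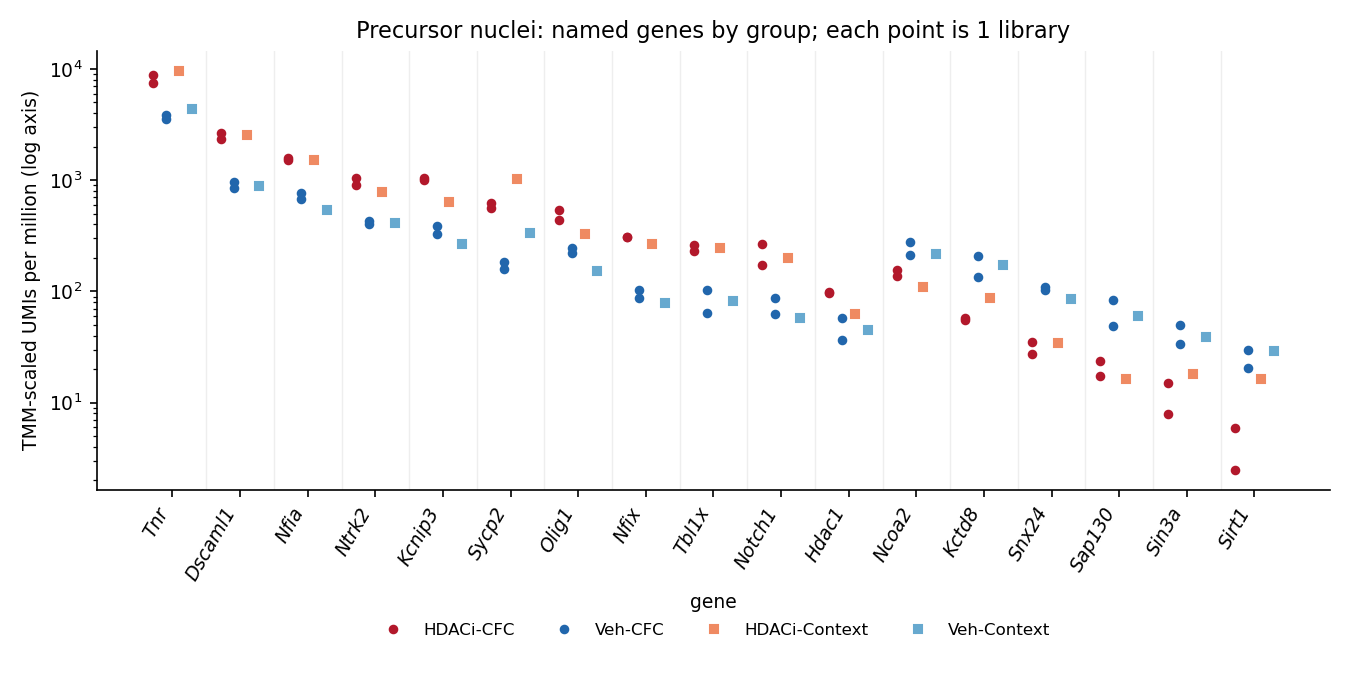
Levels of 17 named genes in precursors, in TMM-scaled CPM on a log axis, with 1 point per library for HDACi-CFC (2), Veh-CFC (2), HDACi-Context (1) and the library labelled Veh-Context (1). From Tnr to Hdac1 the points with CI-994 lie above those labelled vehicle in the same exposure, and from Ncoa2 to Sirt1 they lie below.

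Among called genes with a mean level of at least 6 on the log2 scale and CFC groups that did not overlap, those with the lowest fold changes were expressed at low to moderate levels. Pbx3, a homeodomain factor (chr2:34171457-34373142, minus strand), had 25.0 and 23.7 CPM in the HDACi-CFC libraries, against 95.9 and 90.2 in the Veh-CFC libraries, and 8.12 in HDACi-Context and 59.9 in the library labelled Veh-Context (log2 fold change -1.92 ± 0.33, adjusted p = 1.5e-05), with a Context ratio of -2.88 (95% interval -4.85 to -1.38). Kctd8, an auxiliary subunit of GABA-B receptors, had 57.4 and 55.3 CPM in HDACi-CFC, against 208 and 136 in Veh-CFC (log2 fold change -1.57 ± 0.26, adjusted p = 6.9e-06), with a Context ratio of -0.98. Both were lower with CI-994 in both exposures. Snx24 (a sorting nexin), Rnf138 (a ubiquitin ligase of DNA repair), Smchd1 (a chromatin protein of X inactivation), Cdc14b (a phosphatase) and Nexmif had log2 fold changes of -1.76, -1.71, -1.69, -1.67 and -1.61, and Context ratios of -1.30, -1.61, -0.80, -1.61 and -0.69. Rorb (a nuclear receptor), Ghr (the growth hormone receptor) and Golim4 (a Golgi protein) had -1.70, -1.69 and -1.62 after CFC, while their Context intervals included 0, with ratios of -0.48, -0.39 and -0.61. Slc7a11, the cystine-glutamate antiporter, had the lowest value of these (log2 fold change -1.96 ± 0.28, adjusted p = 5.8e-07), with 12 and 20 UMIs in HDACi-CFC, against 55 and 100 in Veh-CFC, of which 1 nucleus held 51 of 55 in Veh-CFC replicate 1. It was too low to test in the purer members, and its Context ratio had the other sign, at 1.77 (95% interval 1.02 to 2.59). With at least 5 UMIs of the rule genes required, its CFC value also turned, to a log2 fold change of 2.37 (adjusted p = 0.0084).

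The targets of the drug were measured next. Hdac1 (chr4:129516104-129542713, minus strand) had 99.9 and 96.8 CPM in the HDACi-CFC libraries, against 36.5 and 57.6 in the Veh-CFC libraries, and 62.9 in HDACi-Context and 45.5 in the library labelled Veh-Context. It was higher after CFC (log2 fold change 1.00 ± 0.28, adjusted p = 0.0064), lost the call under library-size scaling (0.69) and under DESeq2 (1.04), and had a Context ratio of 0.47 (95% interval -0.37 to 1.33). Hdac2 had 40.0 and 35.5 CPM in HDACi-CFC, against 48.0 and 50.3 in Veh-CFC (log2 fold change -0.39 ± 0.35, adjusted p = 0.44). Hdac3 had 69.9 and 47.4 CPM in HDACi-CFC, against 18.3 and 51.7 in Veh-CFC (log2 fold change 0.61 ± 0.36, adjusted p = 0.22). Hdac8 had 387 and 373 CPM in HDACi-CFC, against 311 and 379.9 in Veh-CFC (log2 fold change 0.13 ± 0.17, adjusted p = 0.62). None of these 3 was called, and the sign of Hdac8 turned to -0.19 under library-size scaling and to -0.28 per nucleus. Of 11 other deacetylases and sirtuins, 3 were higher and 2 lower. Their median level was 5.71 on the log2 scale, and of all genes at 5 to 6, 7.29% were called higher and 9.86% lower. Hdac5, a class IIa enzyme, had 12 and 19 UMIs in HDACi-CFC, against 5 and 5 in Veh-CFC (log2 fold change 1.89 ± 0.50, adjusted p = 0.0037). Hdac7, of the same class, had 41 and 26 UMIs in HDACi-CFC, against 18 and 21 in Veh-CFC (log2 fold change 1.08 ± 0.34, adjusted p = 0.015). Both were called higher after CFC, at few UMIs. Hdac5 lost the call without HDACi-CFC replicate 2 (1.71) and without Veh-CFC replicate 2 (1.54), and DESeq2 gave it no adjusted p. Hdac7 lost it under library-size scaling (0.77), under DESeq2 (1.10), without HDACi-CFC replicate 1 (0.58) and without Veh-CFC replicate 2 (0.85). Sirt1, an NAD-dependent enzyme, had 1 and 3 UMIs in HDACi-CFC, against 13 and 14 in Veh-CFC (log2 fold change -2.40 ± 0.64, adjusted p = 0.0041). The mitochondrial Sirt3 had 3 and 3 UMIs in HDACi-CFC, against 17 and 14 in Veh-CFC (log2 fold change -2.05 ± 0.57, adjusted p = 0.007). Both were lower in HDACi-CFC at few UMIs, and both had Context intervals that included 0, at -0.83 and -0.73. Sirt1 lost the call without HDACi-CFC replicate 1 (-1.96), without HDACi-CFC replicate 2 (-3.16) and without Veh-CFC replicate 2 (-2.70), and Sirt3 without HDACi-CFC replicate 2 (-1.86). DESeq2 called none of the 11 genes, and gave Sirt1 and Sirt3 no adjusted p.

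Corepressor subunits were called at shares near those of all genes tested (15% higher and 10.1% lower): of 25 tested, 5 were higher (Tbl1x, Tbl1xr1, Mta3, Chd3 and Chd4, log2 fold changes 0.65 to 1.61) and 3 lower, with a median log2 fold change of -0.04 after CFC and a median log2 ratio of -0.03 in Context. Tbl1x, a subunit of the NCoR complex, had 262 and 229 CPM in HDACi-CFC, against 103 and 63.6 in Veh-CFC (log2 fold change 1.61 ± 0.22, adjusted p = 2.9e-07), and 248 in HDACi-Context and 82.7 in the library labelled Veh-Context. It was higher in each library with CI-994. Sin3a, the scaffold of the SIN3 complex, had 6 and 4 UMIs in HDACi-CFC, against 22 and 23 in Veh-CFC (log2 fold change -1.86 ± 0.48, adjusted p = 0.0034). Sap130 of the same complex had 7 and 12 UMIs in HDACi-CFC, against 37 and 33 in Veh-CFC (log2 fold change -1.60 ± 0.39, adjusted p = 0.0018). Rcor3 of CoREST had 6 and 2 UMIs in HDACi-CFC, against 8 and 29 in Veh-CFC (log2 fold change -1.86 ± 0.55, adjusted p = 0.01). All 3 were lower in both HDACi-CFC libraries. The Context ratio was -1.88 (95% interval -3.22 to -0.72) for Sap130, and the intervals of Sin3a and Rcor3 included 0. Sin3a lost the call without HDACi-CFC replicate 2 (-1.41), and Rcor3 without HDACi-CFC replicate 2 (-1.10). Under library-size scaling 3 subunits were higher and 6 lower. DESeq2 called 3 higher and 0 lower, and gave Sin3a, Sap130 and Rcor3 no adjusted p. Acetyltransferases and readers of acetylated histones were lower in 5 of 22 and higher in none, with a median log2 fold change of -0.57 after CFC and a median log2 ratio of -0.56 in Context, while 12.2% of all genes at their median level (6.48 on the log2 scale, in the bin from 6 to 7) were called lower. Ncoa2, a nuclear receptor coactivator, had 155 and 136 CPM in HDACi-CFC, against 215 and 278 in Veh-CFC (log2 fold change -0.78 ± 0.20, adjusted p = 0.0028), and 109.6 in HDACi-Context and 217 in the library labelled Veh-Context. Hat1, which acetylates new histone H4, had 8 and 12 UMIs in HDACi-CFC, against 21 and 35 in Veh-CFC (log2 fold change -1.18 ± 0.39, adjusted p = 0.021), with a Context ratio of -1.88 (95% interval -3.22 to -0.72). Brpf3, a bromodomain scaffold, had 6 and 2 UMIs in HDACi-CFC, against 12 and 18 in Veh-CFC (log2 fold change -1.58 ± 0.54, adjusted p = 0.028). These were also lower in HDACi-CFC. Cecr2, another bromodomain protein, had 11 and 19 UMIs in HDACi-CFC, against 30 and 40 in Veh-CFC (log2 fold change -0.93 ± 0.34, adjusted p = 0.037) with a Context ratio of 0.11. Ncoa2 lost the call under DESeq2 (-0.77), without HDACi-CFC replicate 2 (-0.67) and without Veh-CFC replicate 2 (-0.58). Hat1 lost it without HDACi-CFC replicate 1 (-1.04), without HDACi-CFC replicate 2 (-1.30) and without Veh-CFC replicate 2 (-1.12), Brpf3 without HDACi-CFC replicate 2 (-0.82) and without Veh-CFC replicate 2 (-1.59) and Cecr2 without HDACi-CFC replicate 1 (-0.71) and without Veh-CFC replicate 2 (-1.06). Under library-size scaling 14 of these 22 genes were lower, and the purer members had 1 higher and 4 lower. DESeq2 called none of the 22, and gave Hat1, Brpf3 and Cecr2 no adjusted p.

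**Figure D5:**
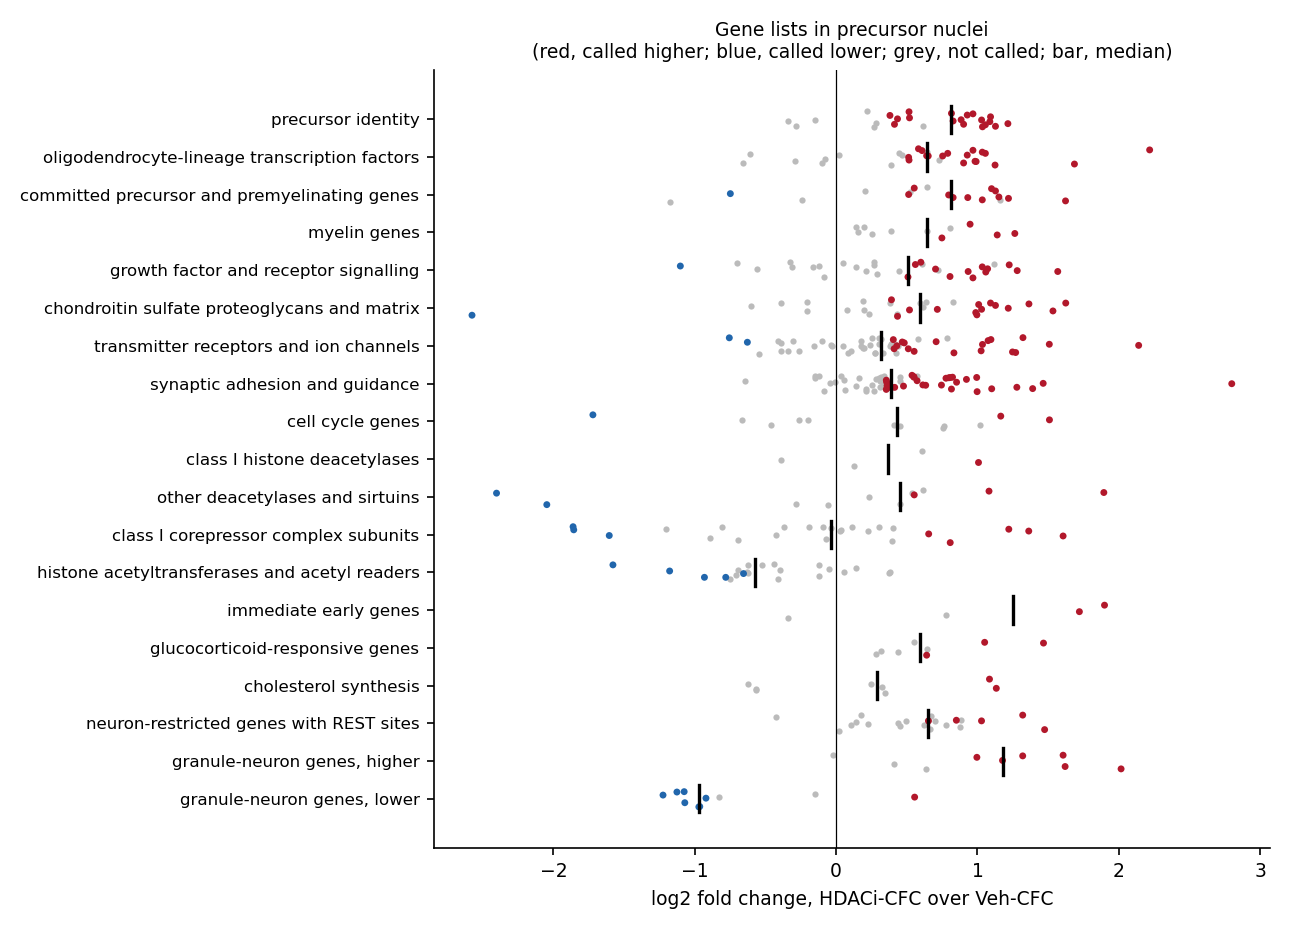
Log2 fold changes of HDACi-CFC over Veh-CFC in precursors for the tested genes of 19 lists, with 1 point per gene, coloured by call, and a bar at the list median. Identity genes have a median of 0.82, acetyltransferases and readers a median of -0.57 and corepressor subunits a median of -0.04, and the median over all genes tested is -0.01.

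Fast-response genes were mostly too low to test: 4 of 23 immediate early genes passed the filter, and 2 were higher. The median level of these 4 was 4.89 on the log2 scale, and 4.66% of all genes under 5 were called higher. Btg2, an antiproliferative factor, had 14 and 20 UMIs in HDACi-CFC, against 4 and 7 in Veh-CFC (log2 fold change 1.90 ± 0.47, adjusted p = 0.0025). The nuclear receptor Nr4a1 had 17 and 21 UMIs in HDACi-CFC, against 5 and 9 in Veh-CFC (log2 fold change 1.72 ± 0.44, adjusted p = 0.0033). Their Context ratios were 1.25 and -0.15, with intervals that included 0. Btg2 lost the call without HDACi-CFC replicate 2 (1.82) and without Veh-CFC replicate 2 (1.99), and Nr4a1 without HDACi-CFC replicate 2 (1.75). DESeq2 gave neither gene an adjusted p. Of 8 glucocorticoid-responsive genes 3 were higher and none lower. Their median level was 6.81 on the log2 scale, and 14.7% of all genes at 6 to 7 were called higher. Hif3a, a hypoxia-inducible factor subunit, had 64.9 and 88.9 CPM in HDACi-CFC, against 34.3 and 23.6 in Veh-CFC (log2 fold change 1.47 ± 0.34, adjusted p = 9.2e-04). Errfi1, an inhibitor of EGF receptor signalling, had 64.9 and 136 CPM in HDACi-CFC, against 59.4 and 42.9 in Veh-CFC (log2 fold change 1.05 ± 0.30, adjusted p = 0.007). The zinc finger factor Zbtb16 had 319.6 and 365 CPM in HDACi-CFC, against 208 and 231 in Veh-CFC (log2 fold change 0.64 ± 0.18, adjusted p = 0.0064). Hif3a lost the call under DESeq2 (1.44) and without Veh-CFC replicate 2 (1.17). Errfi1 lost it under library-size scaling (0.74), under DESeq2 (1.00), without HDACi-CFC replicate 2 (0.40) and without Veh-CFC replicate 2 (0.78), and Zbtb16 under library-size scaling (0.33), under DESeq2 (0.65) and without HDACi-CFC replicate 2 (0.55). Of 8 cholesterol synthesis genes, Fdft1 (squalene synthase) had 24 and 15 UMIs in HDACi-CFC, against 7 and 15 in Veh-CFC (log2 fold change 1.13 ± 0.42, adjusted p = 0.041). Srebf1, a regulator of lipid synthesis, had 24 and 26 UMIs in HDACi-CFC, against 10 and 19 in Veh-CFC (log2 fold change 1.09 ± 0.36, adjusted p = 0.024). The other 6 were not called, and none of the 8 was called under library-size scaling or by DESeq2, which gave Fdft1 and Srebf1 no adjusted p. The list's median level was 5.15 on the log2 scale, and 7.29% of all genes at 5 to 6 were called higher. Fdft1 lost the call under library-size scaling (0.82), without HDACi-CFC replicate 1 (0.62) and without Veh-CFC replicate 2 (1.42), and Srebf1 under library-size scaling (0.77), without HDACi-CFC replicate 1 (1.01) and without Veh-CFC replicate 2 (1.26). Among 12 cell cycle genes 2 were higher and 1 lower, at a median level of 4.80 on the log2 scale. Under 5 on that scale, 4.66% of all genes were called higher and 12.0% lower. Ccnd1 (cyclin D1) had 29 and 26 UMIs in HDACi-CFC, against 5 and 19 in Veh-CFC (log2 fold change 1.51 ± 0.39, adjusted p = 0.0031). Mcm7, a replication helicase subunit, had 3 and 4 UMIs in HDACi-CFC, against 11 and 18 in Veh-CFC (log2 fold change -1.72 ± 0.55, adjusted p = 0.017). Top2a, a topoisomerase of dividing cells, had 18 and 19 UMIs in HDACi-CFC, against 11 and 9 in Veh-CFC (log2 fold change 1.16 ± 0.42, adjusted p = 0.037), with 11 and 10 of the HDACi-CFC UMIs in 1 nucleus of each library. Mcm7 lost the call without HDACi-CFC replicate 1 (-1.65), without HDACi-CFC replicate 2 (-1.75) and without Veh-CFC replicate 2 (-1.68), and Top2a under library-size scaling (0.85), without HDACi-CFC replicate 1 (1.08), without HDACi-CFC replicate 2 (1.32) and without Veh-CFC replicate 2 (0.69). DESeq2 called none of the 12 cell cycle genes, and gave Ccnd1, Mcm7 and Top2a no adjusted p. In the Context pair Top2a had 0 UMIs in HDACi-Context, which allows up to 3, and 21 in the library labelled Veh-Context.

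Neuronal genes silenced by REST outside neurons were higher in 5 of 22 and lower in none, with a median log2 fold change of 0.65 after CFC and a median log2 ratio of 0.31 in Context. Over all genes tested 15% were higher, and 2 of the list were under library-size scaling. Syn2, a synapsin, had 724 and 792 CPM in HDACi-CFC, against 381 and 364 in Veh-CFC (log2 fold change 1.03 ± 0.16, adjusted p = 2.2e-06), and 679.7 in HDACi-Context and 343 in the library labelled Veh-Context. Syn1 had 155 and 158 CPM in HDACi-CFC, against 57.1 and 66.5 in Veh-CFC (log2 fold change 1.32 ± 0.24, adjusted p = 3.8e-05), with a Context ratio of 0.13 (95% interval -0.56 to 0.82). Both synapsins were higher after CFC, and Syn2 in Context as well. The growth factor Bdnf had 16 and 18 UMIs in HDACi-CFC, against 3 and 12 in Veh-CFC (log2 fold change 1.47 ± 0.46, adjusted p = 0.015). The vesicle protein Rab3a had 30 and 33 UMIs in HDACi-CFC, against 16 and 27 in Veh-CFC (log2 fold change 0.85 ± 0.31, adjusted p = 0.04). Neither was called in the purer members (1.12, adjusted p = 0.11 for Bdnf, 0.75, adjusted p = 0.094 for Rab3a), where 2 of the list were higher. Bdnf also lost the call under library-size scaling (1.16), without HDACi-CFC replicate 1 (1.43) and without HDACi-CFC replicate 2 (1.58), and Rab3a under library-size scaling (0.54), under DESeq2 (0.87), without HDACi-CFC replicate 1 (0.79) and without Veh-CFC replicate 2 (0.92). Excitatory neuron markers in members were also higher in HDACi-CFC, and their part was not tested. Genes that granule neurons of these libraries had shown as higher or lower with CI-994 were also read in precursors, and since they were taken from the same libraries they are no independent evidence. Of the 9 tested that were higher there, 6 were higher here (15% over all genes tested), among them Igsf3 with 18 and 12 UMIs in HDACi-CFC, against 2 and 7 in Veh-CFC (log2 fold change 2.02 ± 0.52, adjusted p = 0.0036). Arid5b, a DNA-binding protein, had 312 and 237 CPM in HDACi-CFC, against 98.2 and 81.3 in Veh-CFC (log2 fold change 1.62 ± 0.21, adjusted p = 8.9e-08). Of the 10 that were lower there, 7 were lower here (10.1% over all genes tested) and Rspry1 was higher. Gdpd1 had 12 and 14 UMIs in HDACi-CFC, against 30 and 45 in Veh-CFC (log2 fold change -1.22 ± 0.34, adjusted p = 0.0066). Smc6 of the SMC5/6 complex had 52.4 and 47.4 CPM in HDACi-CFC, against 116 and 96.1 in Veh-CFC (log2 fold change -1.07 ± 0.27, adjusted p = 0.003). Zfp704, a zinc finger protein, had 97.4 and 61.2 CPM in HDACi-CFC, against 176 and 154 in Veh-CFC (log2 fold change -1.07 ± 0.24, adjusted p = 6.4e-04). These 3 did not overlap between the groups. Igsf3 lost the call without HDACi-CFC replicate 1 (1.58), Smc6 under DESeq2 (-1.08) and Zfp704 without HDACi-CFC replicate 2 (-0.73). Of the 10 genes lower in granule neurons, DESeq2 called 1 lower. The POU factor Pou2f2 had 14 and 22 UMIs in HDACi-CFC, against 24 and 75 in Veh-CFC (log2 fold change -1.13 ± 0.32, adjusted p = 0.0075) and was not called in the purer members (-0.84, adjusted p = 0.073), under DESeq2 (-1.09) and without Veh-CFC replicate 2 (-0.48).

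The drug effect was compared between exposures over all 6 libraries, assuming that the lone Context libraries vary like the CFC libraries. The effect differed for 60 of 7755 genes (0.774%), 51 with a higher and 9 with a lower value after CFC. Chrm3, a muscarinic receptor, had 65 and 95 UMIs in HDACi-CFC, against 42 and 50 in Veh-CFC, and 5 in HDACi-Context, against 71 in the library labelled Veh-Context (log2 difference 4.87 ± 0.54, adjusted p = 4.4e-10). Trpm3, a cation channel, had 185 and 172 UMIs in HDACi-CFC, against 295 and 484 in Veh-CFC, and 350 in HDACi-Context, against 122 in the library labelled Veh-Context (log2 difference -2.33 ± 0.29, adjusted p = 1.5e-08). Chrm3 UMIs were found in 5 to 17 members by library, and 1 member held 31 of the 71 in the library labelled Veh-Context. Trpm3 UMIs were found in 55 to 71 members by library, but 1 member held 197 of the 484 in Veh-CFC replicate 2. The lower calls numbered 20 without HDACi-CFC replicate 1 and 24 without HDACi-CFC replicate 2. In the purer members 1 gene was called, Top2a, and 337 had an unadjusted p below 0.05. Chrm3 had a log2 difference of 2.13 there (adjusted p = 0.95). Exposure went with the Cell Ranger version in the file headers, 3.0.2 for both Context libraries and 3.0.1 for the CFC libraries, and exposure and version cannot be told apart.

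Within the CFC libraries the drug effect in precursors was set against that in mature oligodendrocytes (3318 nuclei in all 6 libraries) and astrocytes (681), with the library as a block. Against oligodendrocytes it differed for 321 of 10411 genes (3.08%), 108 higher and 213 lower in precursors. Sema3d, a semaphorin, had 546 and 644 CPM in precursors of HDACi-CFC, against 429 and 346 in those of Veh-CFC. In oligodendrocytes it had 5.70 and 3.71 in HDACi-CFC, against 22.0 and 27.5 in Veh-CFC (log2 difference 3.14 ± 0.43, adjusted p = 8.1e-04). It was higher with CI-994 in precursors and lower in oligodendrocytes, where its HDACi-CFC level rested on few UMIs, in sums of 892345 and 1723512. Csnk2a2, a catalytic subunit of casein kinase 2, had 481 and 449.8 CPM in precursors of HDACi-CFC, against 151 and 143 in those of Veh-CFC. In oligodendrocytes it had 25.7 and 21.5 in HDACi-CFC, against 35.4 and 45.0 in Veh-CFC (log2 difference 2.47 ± 0.29, adjusted p = 4.5e-04). Its direction, too, was opposite in the 2 classes. Rasa2, a Ras GTPase activator, had 149 and 176 CPM in precursors of HDACi-CFC, against 123 and 135 in those of Veh-CFC, where it was not called. In oligodendrocytes it had 7.13 and 12.6 in HDACi-CFC, against 53.1 and 50.5 in Veh-CFC, where it was lower (log2 difference 2.63 ± 0.34, adjusted p = 7.7e-04). Nxpe3 was lower in precursors and higher in oligodendrocytes, with 11.6 and 11.1 CPM in precursors of HDACi-CFC, against 40.4 and 48.7 in those of Veh-CFC. Its UMIs were found in 5 and 5 precursors of HDACi-CFC, against 16 and 26 of Veh-CFC. In oligodendrocytes it had 234 and 255 in HDACi-CFC, against 127 and 105 in Veh-CFC (log2 difference -3.09 ± 0.42, adjusted p = 7.7e-04).

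Against astrocytes the effect differed for 53 of 8600 genes (0.616%), 36 higher and 17 lower in precursors. Wipf1, an actin regulator, had 592 and 641 CPM in precursors of HDACi-CFC, against 278 and 306 in those of Veh-CFC. In astrocytes it had 22.1 and 34.9 in HDACi-CFC, against 86.0 and 78.3 in Veh-CFC (log2 difference 2.55 ± 0.39, adjusted p = 0.0058). It was higher with CI-994 in precursors and lower in astrocytes. Evi5l, a Rab GTPase activator, had 379.9 and 353 CPM in precursors of HDACi-CFC, against 193 and 169 in those of Veh-CFC. In astrocytes it had 9.47 and 10.5 in HDACi-CFC, against 30.2 and 48.3 in Veh-CFC (log2 difference 2.94 ± 0.53, adjusted p = 0.014). It showed the same opposite directions, but its astrocyte level in HDACi-CFC rested on few UMIs, in sums of 357481 and 654319. Within astrocytes its log2 fold change was -1.95 (adjusted p = 0.044 by edgeR). Zfp423, a zinc finger factor, was not called in precursors, with 33.6 and 28.4 CPM in precursors of HDACi-CFC, against 51.1 and 42.6 in those of Veh-CFC. In astrocytes it had 202 and 204 in HDACi-CFC, against 48.8 and 69.1 in Veh-CFC, where it was higher (log2 difference -2.36 ± 0.44, adjusted p = 0.015). The astrocyte sums rest on fewer nuclei, 99 to 161 by library in the CFC groups. The counts changed with the nuclei used: in the purer members 361 genes were higher and 189 lower against oligodendrocytes, and 87 higher and 43 lower against astrocytes. Without HDACi-CFC replicate 2 they were 218 higher and 110 lower against oligodendrocytes, and 5 higher and 7 lower against astrocytes. Without HDACi-CFC replicate 1 they were 319 and 175 against oligodendrocytes, and 55 and 51 against astrocytes. Without Veh-CFC replicate 1 the counts were 78 and 134 against oligodendrocytes, and 52 and 64 against astrocytes, and without Veh-CFC replicate 2 they were 75 and 83, and 45 and 63. The lower calls against oligodendrocytes were fewer without any 1 library, and those against astrocytes were fewer without HDACi-CFC replicate 2 and more without each of the others.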

How the data were processed

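Nuclei of mouse hippocampus were profiled in 6 droplet libraries. The authors deposited raw UMI counts per gene and barcode for the barcodes called as cells, made with Cell Ranger 3.0.1 (CFC libraries) and 3.0.2 (Context libraries) per the file headers. Cell Ranger 3.0.1, Seurat 4.0.3 and mm10 stand in the submitters' processing notes, and the genome step details and the counting of introns are not given in the sources used here.

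Barcodes with under 500 genes (725) or over 5% mitochondrial UMIs (1832) were left out. Precursors were chosen by the rule stated at the opening, mature oligodendrocytes by at least 3 UMIs of Mog, Mag and Mobp and astrocytes by at least 3 of Gja1 and Aqp4, each with at most 1 UMI of the precursor genes. Doublets were marked by Scrublet in scanpy 1.11.5 (expected rate 0.06) and kept, except in one alternative. The members and gene lists were chosen with earlier results of these data known. The 2 libraries of a group were checked to differ by more than sampling noise. UMIs were summed per library and class and tested with edgeR 4.0.16 in R 4.3.3 (quasi-likelihood test, TMM scaling, its default filter on low counts, group as the only term, two-sided, called at Benjamini-Hochberg adjusted p below 0.05). The script was tested on simulated data. Fold changes are HDACi over Veh, on the log2 scale, with SE after the sign ±. The Context pair had no test: its log2 ratio was scaled by TMM over its 2 libraries, with an exact conditional binomial 95% interval. Intervals cover counting error only. Differences of drug effects between exposures and between classes were interaction terms, those between classes with the library as a block. DESeq2 1.42.0 and the other alternatives stand in the closing section. Named genes were the 12 highest and 12 lowest called genes with a mean level of at least 6 on the log2 scale and groups that did not overlap, up to 4 called genes of each list with the largest change, the 4 class I deacetylases, the 5 rule genes, and the 4 highest and 4 lowest (for exposure, 3 and 3) differences. Olig2 and the genes listed by name beside a count were named in addition, after their values were seen. A few genes that these rules and lists would include are not reported here. Replicate numbers did not pair the libraries. Gene positions come from GENCODE in GRCm38, and 69 of 94 named genes had a RefSeq start window. Python 3.11.15, numpy 2.4.6, pandas 2.3.3, scipy 1.17.1 and matplotlib 3.10.9 were used.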

Additional observations from a re-analysis of the deposited data

Results flagged for a closer look

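The drug effect differed between CFC and Context for 60 genes over all members, by the interaction test. The genes named there had log2 differences of 4.87 for Chrm3, 3.87 for Unc5d and 3.50 for Cntnap5c, an adhesion protein, which were higher after CFC. The values were -5.83 for Slc6a20a, a proline transporter, -3.76 for Slc7a11 and -2.33 for Trpm3, which were lower after CFC. In the purer members, Chrm3, Cntnap5c and Trpm3 had 2.13, 1.18 and -0.72 and were not called, and the other 3 were too low to test.

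Against mature oligodendrocytes, the tested difference in drug effect was higher in precursors for Sema3d (3.14), Unc5d (2.86), Rasa2 (2.63) and Csnk2a2 (2.47). It was lower for Plekhh1 (-3.89), Nxpe3 (-3.09), Tspan14 (-3.07) and Meis1 (-2.85), and of these 4 Nxpe3 alone had enough UMIs in precursors for a test within them. In the purer members 7 of the 8 kept the call, and Plekhh1 did not (-3.30, adjusted p = 0.062 by edgeR).

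Against astrocytes it was higher in precursors for Evi5l (2.94), Epb41 (2.56), Wipf1 (2.55) and Unc5d (2.54). It was lower for Slc6a20a (-5.67), Ranbp3l (-4.06), Bicc1 (-2.57) and Zfp423 (-2.36). Ranbp3l, a gene of the fibroblast list, had 0.46 in the purer members, Unc5d had 0.99 and Slc6a20a had -4.23, none of them called there. The part of fibroblast and neuronal RNA in these differences was not tested beyond that comparison.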

How the results depend on the processing

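Of the 1206 higher and 809 lower genes after CFC, library-size scaling gave 626 and 1791, scaling to the number of nuclei 390 and 1801, DESeq2 530 and 76 (genes for which it gave no adjusted p left out), and thinning to 2000 UMIs 703 and 436 of 5018 tested. Leaving out 1 library gave 0 to 975 higher and 0 to 476 lower, and in the purer members, with 1025 and 704, 752 to 999 higher and 316 to 490 lower (490, 404, 390 and 316 lower by library). Both counts of 0 came without Veh-CFC replicate 1, where a lone Veh-CFC library is assumed to vary like the others. The prior degrees of freedom of that fit were 3.80, against 45.3 with all 4 libraries. They were infinite without any other library, so those fits took each gene's variance from a common trend. In the purer members they were 2068 without Veh-CFC replicate 1 and infinite without any other library. Replicate numbers were not pairs (r = 0.025 between deviations of same-numbered libraries over 8046 genes), and with a replicate block 1235 genes were higher and 841 lower, with the call of all 89 named genes unchanged. No filter, all 6 libraries, a stricter rule, a lineage UMI, no doublets, no fibroblast or pericyte UMI and the purer members kept both counts within 1.5 times. Of 89 named genes, 76 kept direction and call status under library-size scaling and 74 per nucleus. Without Veh-CFC replicate 1 every call was lost. Hdac8 turned to -0.19 (library size), -0.28 (per nucleus) and -0.021 (thinned). Slc7a11 turned to 2.37 (adjusted p = 0.0084) under the stricter rule and to 1.61 in the purer members without Veh-CFC replicate 1. The cause was not tested.

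The exposure interaction, with 51 higher and 9 lower, gave 31 and 3 with a lineage UMI, 1 and 0 in the purer members (337 at an unadjusted p below 0.05), and 44 to 76 higher and 8 to 24 lower without single libraries. With a lineage UMI, Slc7a11 turned to 0.61. Against oligodendrocytes (108 and 213), higher genes numbered 173 with no filter and 361 in the purer members, lower genes 111 under library-size scaling, and single libraries left out gave 75 to 319 higher and 83 to 175 lower. Against astrocytes (36 and 17), higher genes numbered 13 under library-size scaling and 87 in the purer members, lower genes 43 in the purer members and 75 with no filter, and single libraries left out gave 5 to 55 higher and 7 to 64 lower. Ranbp3l turned to 0.46 in the purer members. The same-sign share in Context ran from 87.5% to 95.7%, and the difference in precursor share from -0.15 to 0.49 percentage points. With 107 to 144 members a library, genes of few UMIs, fast-response genes among them, were not testable at this depth.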
